A study of Mus musculus with 12 samples.

Results

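The AP-1 transcription factors and Atf3 were followed in the brain RNA of 12 mice. The family was taken as the 8 genes Fos, Fosb, Fosl1, Fosl2, Jun, Junb, Jund and Atf3, matched by gene symbol, out of the 31208 genes in the deposited table. These genes were chosen with values of the same mice already known, since the rise of Atf3 over sham and the counts of Fos had been seen, so their levels against sham are a description. Members past the limits against sham are counted once, beside the share of all genes, and nothing is read from those counts. The comparison of lactate with vehicle carries p values, but the counts of Fos in those mice had been seen as well.

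The mice were male C57BL/6 mice aged 8 weeks, without any transgene, in 3 groups of 4. Sham mice had no ischemia, and the labels do not state what they were injected with. Vehicle mice received 2 μL of saline and lactate mice 2 μL of lactate at 100 mmol/L into the cerebral ventricle 24 h before the middle cerebral artery was occluded with a filament on the left side, and their brains were taken at 6 h of ischemia. The methods name D-lactate, while the labels name lactate without its form. Long nanopore reads of full-length cDNA were counted per gene, 6815920 to 10677224 reads in each mouse, and CPM values scale each count to the total of the same mouse. The comparison of vehicle with sham asks how the family differed after injection and ischemia. Injection and ischemia cannot be told apart in it, since the injection of sham mice is not stated. The comparison of lactate with vehicle asks what lactate added before ischemia did to the family.

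Defining markers of neurons, astrocytes, microglia and oligodendrocytes were present in every library. Summed over 6 markers, neurons reached 3645 to 3833 CPM in sham mice, 2998 to 4910 CPM in vehicle mice and 3253 to 3669 CPM in lactate mice. Summed over 5 markers, microglia reached 202 to 215 CPM in sham mice, 118 to 195 CPM in vehicle mice and 185 to 206 CPM in lactate mice. Vehicle mouse 1 stood apart from the other vehicle mice, with a chi-square per gene of 37.9 to 42.6 against each of them, and had the highest neuron and the lowest microglia sum. Vehicle mouse 2 stood apart in markers of the choroid plexus, at 1837 CPM against at most 18.4 CPM in any other mouse. That sum over 5 markers was 1.22 to 4.35 CPM in sham and 9.46 to 18.4 CPM in lactate mice. Markers of neutrophils and blood, 8 genes, summed to 562 to 636 CPM in sham, 344 to 552 CPM in vehicle and 405 to 522 CPM in lactate mice. This sum pools neutrophil genes with hemoglobin genes and so does not show neutrophils alone. Endothelial markers, 4 genes, summed to 73.0 to 84.1 CPM in sham, 51.4 to 79.9 CPM in vehicle and 50.9 to 69.8 CPM in lactate mice. The part of these cell types in the results below was not tested. Counts of genes called with vehicle are therefore also given without each of these mice. In bulk tissue, fewer cells of a type and less RNA per cell cannot be told apart.

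AP-1 is a dimer of a Fos protein with a Jun protein, or of Jun proteins with each other, joined through a leucine zipper and bound to DNA through the basic region beside it. Fos, Fosb and Junb are immediate early genes, switched on within minutes by synaptic activity, growth factors or injury without the need for new protein. Jund is comparatively constant in resting cells. Atf3 is a related zipper protein of the ATF/CREB family that can pair with Jun, is almost silent in the healthy brain and is induced by cell stress and axonal injury. Transcription of Fos and its relatives is switched on by CREB at cyclic AMP response elements and by serum response factor, and that of Jun by Jun and ATF2 on its own promoter after phosphorylation by JNK.

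On GRCm38, with GENCODE gene models, Fos is at chr12:85473890-85477273 on the plus strand, Fosb at chr7:19302696-19310051 on the minus strand, Fosl2 at chr5:32135801-32157842 on the plus strand and Atf3 at chr1:191170296-191218039 on the minus strand. Jun at chr4:95049034-95052222, on the minus strand, overlaps the antisense gene Junos, and Jund at chr8:70698949-70700616, on the plus strand, overlaps the antisense gene Gm11175. Junb at chr8:84974484-84978718, on the minus strand, overlaps Prdx2 on the other strand, which had 4913 to 6326 reads. Fosl1 at chr19:5447547-5455946, on the plus strand, overlaps Ccdc85b on the other strand, which had 38 to 500 reads. Whether counting used the strand is not given in the sources used here, so reads of these overlapping pairs may be shared. Counts per gene pool all splice forms, among them the forms of Fosb and the alternative starts of Atf3.

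The 250 bases before the RefSeq start are shown for the members that the results turn on, as context for their levels across mice. RefSeq sequence of GRCm38.p6 was matched for 7 of the 8 members, and each stretch is written in the direction of its gene, with the motifs found in capitals. These are the core TGACG of the cyclic AMP response element, or its reverse complement CGTCA, the TATA box TATAAA, and TGACATCA, the AP-1-like element of the Jun promoter, which was added after the sequences had been read. The stretches are chr12:85473640-85473889 for Fos, chr8:84978749-84978998 for Junb, chr7:19310046-19310295 for Fosb, chr4:95052223-95052472 for Jun and chr1:191183334-191183583 for Atf3.
Fos: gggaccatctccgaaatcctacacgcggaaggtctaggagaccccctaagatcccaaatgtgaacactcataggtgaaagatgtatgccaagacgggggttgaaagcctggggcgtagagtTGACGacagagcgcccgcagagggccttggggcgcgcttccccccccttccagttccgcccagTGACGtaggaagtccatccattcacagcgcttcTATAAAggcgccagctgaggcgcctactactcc
Junb: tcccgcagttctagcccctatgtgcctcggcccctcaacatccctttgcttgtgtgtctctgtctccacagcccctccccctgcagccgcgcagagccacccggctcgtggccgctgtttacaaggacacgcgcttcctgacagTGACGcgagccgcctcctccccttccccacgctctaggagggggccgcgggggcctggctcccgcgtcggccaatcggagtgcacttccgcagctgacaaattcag
Fosb: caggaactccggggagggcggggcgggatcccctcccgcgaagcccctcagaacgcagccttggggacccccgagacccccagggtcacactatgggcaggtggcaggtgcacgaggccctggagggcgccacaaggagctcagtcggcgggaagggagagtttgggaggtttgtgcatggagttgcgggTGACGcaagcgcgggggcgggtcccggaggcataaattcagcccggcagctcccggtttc
Jun: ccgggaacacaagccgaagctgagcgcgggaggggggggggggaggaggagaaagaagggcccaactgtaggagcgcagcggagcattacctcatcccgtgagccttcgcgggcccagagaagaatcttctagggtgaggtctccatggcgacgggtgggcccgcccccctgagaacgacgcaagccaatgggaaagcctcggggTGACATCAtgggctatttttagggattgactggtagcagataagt
Atf3: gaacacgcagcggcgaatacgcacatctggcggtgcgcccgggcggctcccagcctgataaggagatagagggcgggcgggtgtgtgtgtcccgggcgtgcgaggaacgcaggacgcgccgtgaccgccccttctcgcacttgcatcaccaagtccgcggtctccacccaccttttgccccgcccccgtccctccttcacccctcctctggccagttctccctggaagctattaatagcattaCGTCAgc

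Counted from the base before the start, the core began at -129 and -66 in Fos, at -106 in Junb, at -60 in Fosb and at -7 in Atf3. Only Fos held the TATA box, at -33, and only Jun held TGACATCA, at -45, among the 7 members. The core was found in 17.8% of 32851 promoter stretches of the same length searched on both strands, the TATA box in 12.4% and TGACATCA in 2.93%. The full response element TGACGTCA, which contains the core, was found in 1.55% of all stretches and in none of the members, and the classical AP-1 site TGANTCA, with C or G at N, in 4.46% and in none of the members. The stretch of Atf3 lies inside the GENCODE gene, so it belongs to the inner of its starts. The stretches of Fosl2, at chr5:32136222-32136471 inside its GENCODE gene, and of Jund, at chr8:70697489-70697738 before and apart from its GENCODE start, held none of these motifs, which says nothing of the GENCODE starts.

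Fos, the founding member and the usual marker of recently active neurons, spread widely in the ischemic mice. It stood at 25.1, 29.2, 48.3 and 51.2 CPM in the sham mice, at 10.1, 138, 371 and 31.5 CPM in vehicle mice 1 to 4, and at 4.87, 53.3, 10.68 and 8.12 CPM in lactate mice 1 to 4. In reads these are 190 to 415 in sham, 108 to 2978 in vehicle and 36 to 445 in lactate mice. Vehicle mice 2 and 3 lay above every sham mouse and vehicle mouse 1 below every sham mouse, while lactate mice 1, 3 and 4 lay below every sham mouse and lactate mouse 2 just above them. The mean was 38.4 ± 13.2 CPM in sham, 138 ± 165 CPM in vehicle and 19.2 ± 22.8 CPM in lactate mice (SD, n = 4 each). The fitted log2 fold change against sham was 1.87 (SE 0.76) with vehicle and -0.96 (SE 0.55) with lactate, from comparisons that share the sham mice. Without vehicle mouse 3 the first value was 0.68, and without lactate mouse 2 the second was -2.26.

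Fosb, whose stable short form is known to build up with repeated stimulation, was lowest in sham and followed the same mice. Its level was 14.2, 12.6, 10.3 and 18.6 CPM in sham, 36.4, 194, 418 and 15.3 CPM in vehicle and 13.4, 221, 19.4 and 12.8 CPM in lactate mice 1 to 4. Vehicle mice 1, 2 and 3 and lactate mice 2 and 3 lay above all sham mice, and no ischemic mouse lay below them. Lactate mouse 2 held 1849 reads of Fosb, more than vehicle mouse 2 with 1495, whereas the other lactate mice held 99 to 147. The fitted log2 fold change over sham was 3.60 (SE 0.78) with vehicle and 2.29 (SE 0.79) with lactate, and these were 2.59 without vehicle mouse 3 and 0.14 without lactate mouse 2.

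The 2 Fos-related antigens were much sparser. Fosl2 stood at 2.64, 2.12, 1.22 and 1.85 CPM in sham, 1.87, 9.32, 16.2 and 3.23 CPM in vehicle and 2.30, 7.78, 2.37 and 3.13 CPM in lactate mice. Its log2 fold change over sham was 1.98 (SE 0.57) with vehicle and 1.02 (SE 0.41) with lactate, or 1.31 without vehicle mouse 3 and 0.44 without lactate mouse 2. Fosl1 had 6, 2, 0 and 1 reads in sham, 7, 10, 20 and 1 in vehicle and 1, 8, 8 and 3 in lactate mice. With 3 reads taken as the floor of detection, 3 of 4 sham mice were below it. Fosl1 reached 1 CPM in 2 of 4 vehicle mice, 1 of 4 lactate mice and 0 of 4 sham mice, too few for the filter on low counts, and has no fitted value.

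Jun, a partner of the Fos proteins and a target of JNK signalling, lay above the sham range in 5 of 8 ischemic mice. It stood at 9.36, 17.4, 21.7 and 22.2 CPM in sham, 14.6, 60.5, 158 and 45.04 CPM in vehicle and 12.03, 45.03, 32.8 and 18.6 CPM in lactate mice. Vehicle mice 2, 3 and 4 and lactate mice 2 and 3 lay above all sham mice, and the remaining ischemic mice lay within the sham range. The log2 fold change over sham was 2.00 (SE 0.54) with vehicle, or 1.21 without vehicle mouse 3, and 0.64 (SE 0.35) with lactate, or 0.28 without lactate mouse 2.

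Junb, an immediate early Jun protein that can restrain Jun, split the ischemic mice much as Fos did. Its level was 16.9, 23.4, 41.7 and 52.9 CPM in sham, 14.3, 65.4, 188 and 19.95 CPM in vehicle and 17.0, 32.7, 16.0 and 14.7 CPM in lactate mice. Vehicle mice 2 and 3 were above all sham mice, while no lactate mouse was above them, and vehicle mouse 1 and lactate mice 3 and 4 were below them. The log2 fold change was 1.12 (SE 0.65) with vehicle, falling to 0.013 without vehicle mouse 3, and -0.72 (SE 0.34) with lactate, which was -0.42 without sham mouse 4.

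Jund, the least inducible Jun protein, varied little. It stood at 11.9, 10.5, 10.2 and 7.52 CPM in sham, 20.98, 13.1, 19.0 and 14.5 CPM in vehicle and 14.3, 16.3, 10.3 and 12.4 CPM in lactate mice. All 4 vehicle mice lay above all sham mice, with log2 fold changes of 0.80 (SE 0.21) for vehicle and 0.45 (SE 0.19) for lactate. Vehicle mouse 1, which had little Fos and Junb, had the highest Jund of all mice.

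Atf3, the stress-induced member, had 5, 0, 9 and 0 reads in the sham mice, 24, 144, 371 and 46 in vehicle mice 1 to 4 and 10, 129, 61 and 6 in lactate mice 1 to 4. In CPM these are 0.659, 0, 1.22 and 0 in sham, 2.25, 18.6, 46.2 and 6.75 in vehicle and 1.35, 15.4, 8.04 and 0.696 in lactate mice. Every vehicle mouse exceeded every sham mouse, and 3 of 4 lactate mice did, with lactate mouse 4 inside the sham range. The log2 fold change over sham was 5.36 (SE 1.00) with vehicle and 3.84 (SE 0.99) with lactate, or 4.36 without vehicle mouse 3 and 2.89 without lactate mouse 2. Without sham mouse 3 they were 6.41 and 4.88. Both values rest on a sham level near the floor, which for 3 reads corresponds to 0.281 to 0.44 CPM.

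**Figure D1:**
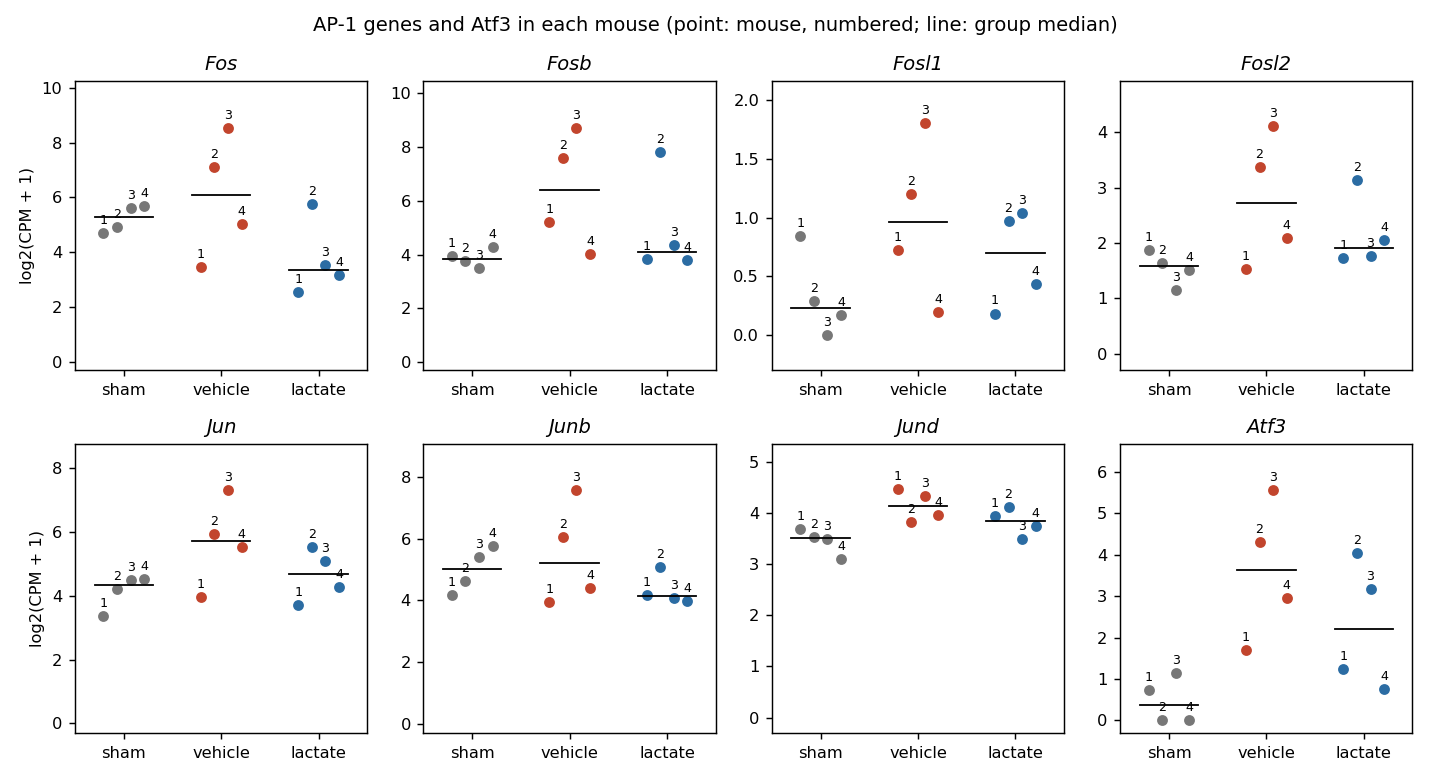
Level of each member in each mouse, as log2(CPM + 1) on the vertical axis and group on the horizontal axis, with points numbered by mouse and a line at the group median. Vehicle mouse 3 is highest in 7 of the 8 panels and lactate mouse 2 is highest of its group in all but that of Fosl1, while Atf3 and Jund are the only panels in which all vehicle points lie above all sham points.

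A member was called where its fold change was 1.5 or more and its adjusted p below 0.05. By these limits edgeR's quasi-likelihood test with Benjamini-Hochberg adjustment called 2 of the 7 tested members higher with vehicle than in sham, Atf3 and Fosb, where 1.29% of all 17019 genes tested were called. With unadjusted p values it called 6, all but Junb, against 6.50% of genes. Against sham with lactate, 1 member was called, Atf3, beside 7.88% of 17262 genes, and 3 with unadjusted p values, Atf3, Fosb and Fosl2, beside 11.9%. Groups did not overlap for 2 of 8 members with vehicle, against 4.14% of genes, and for 0 with lactate, against 10.4%. Nothing is read from these counts, because the family was picked on them. The 7 members had a median log2 fold change of 1.98 with vehicle and 0.64 with lactate, and the medians over all genes tested were 0.0031 and -0.028. Without vehicle mouse 1 the number called with vehicle was 4, without vehicle mouse 2 or 3 it was 1, without sham mouse 3 it was also 1, and without sham mouse 1, 2 or 4 it was 0. With lactate the number was 0 without sham mouse 1, 2 or 4, and 2 without lactate mouse 1 or 4.

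The same few mice were high for most members. Vehicle mouse 3 was the highest of the 12 mice for every member but Jund, and vehicle mouse 2 came second for 6 members. Vehicle mice 2 and 3 were above all sham mice for 8 of 8 members, lactate mouse 2 for 7, vehicle mouse 4 and lactate mouse 3 for 4, vehicle mouse 1 for 3, and lactate mice 1 and 4 for 2. Vehicle mouse 1, lactate mouse 3 and lactate mouse 4 each had 2 members below all sham mice, and lactate mouse 1 had 1. The choroid plexus sum was 1837 CPM in vehicle mouse 2 but 12.6 CPM in vehicle mouse 3 and 9.46 CPM in lactate mouse 2, the other mice with high values, and the neuron sums of these 3 mice lay between 3013 and 3435 CPM. Microglia sums reached 195 and 169 CPM in vehicle mice 2 and 3 against 118 and 145 CPM in vehicle mice 1 and 4, and 199 CPM in lactate mouse 2 against 185 to 206 CPM in the other lactate mice. Endothelial cells reached 79.9 CPM in vehicle mouse 2 and 69.8 CPM in lactate mouse 2, the highest of their groups, but 59.4 CPM in vehicle mouse 3, within its group. The part of cell composition in these values was not tested.

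**Figure D2:**
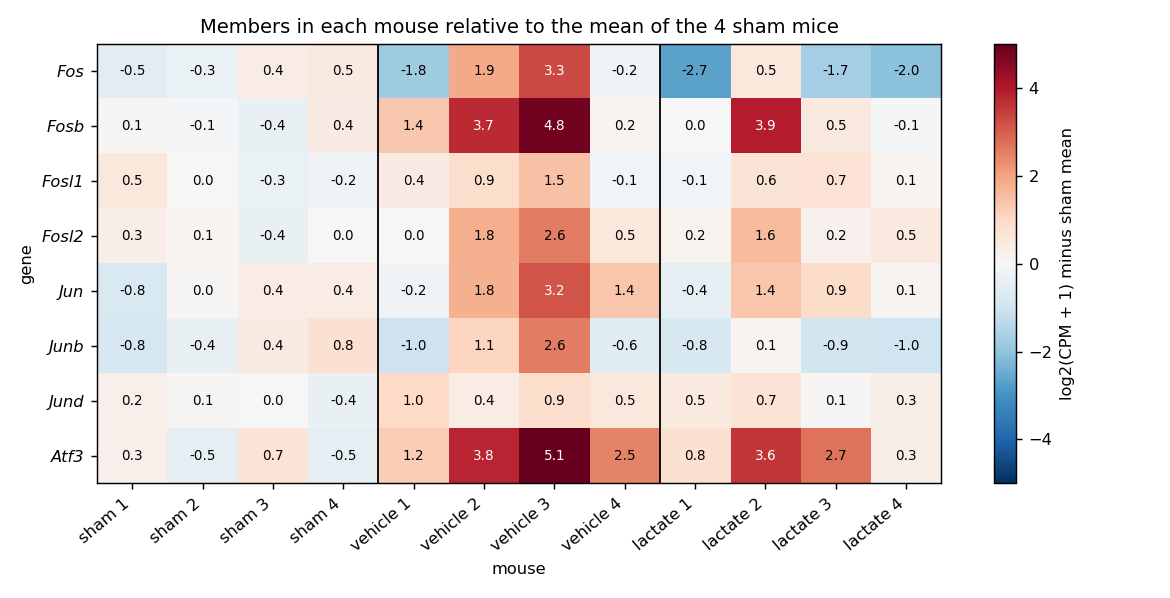
Difference of log2(CPM + 1) from the mean of the 4 sham mice, for each member (rows) in each mouse (columns), red for higher and blue for lower. The columns of vehicle mice 2 and 3 and lactate mouse 2 are red, reaching 5.1 for Atf3 in vehicle mouse 3, except Junb in lactate mouse 2, at 0.09. Fos is most blue in lactate mice 1, 3 and 4, at -2.7, -1.7 and -2.0, and in vehicle mouse 1, at -1.8.

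Lactate was compared with vehicle to see whether the family differed between the ischemic groups. The median CPM of all 8 members was lower with lactate than with vehicle, and the fitted log2 fold change was negative for all 7 members tested, with a median of -1.36 beside -0.029 over all 17419 genes, of which 54.4% were negative. No member was called by edgeR's quasi-likelihood test after adjustment, which called 0.00574% of genes lower. DESeq2, edgeR's exact test and limma voom also called 0 members. With unadjusted p values, 3 members were lower, Fos, Jun and Junb, beside 2.47% of genes. For no member did the groups separate, which 1.83% of genes did in this direction.

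Among the members Fos had the largest fitted difference between lactate and vehicle, and since its counts had been seen when the family was chosen, its p is no independent evidence. It had a log2 fold change of -2.84 (SE 0.98, 95% interval -4.97 to -0.70) and an edgeR p of 0.0135 before and 0.496 after adjustment over all genes. Junb followed at -1.84 (SE 0.66, interval -3.28 to -0.41), with an edgeR p of 0.0162 and an adjusted p of 0.511. Jun was at -1.36 (SE 0.58, interval -2.62 to -0.10), with an edgeR p of 0.0363 and an adjusted p of 0.541. Over the 12 mice Junb and Jun correlated with Fos at r = 0.929 and 0.790, so their p values are no independent evidence either. These 3 genes passed the unadjusted limits only, and their intervals exclude 0 only before adjustment.

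The other members had wider or smaller differences. The log2 fold change of Atf3 was -1.53 (interval -3.48 to 0.42), that of Fosb -1.32 (interval -3.59 to 0.95), that of Fosl2 -0.97 (interval -2.28 to 0.35) and that of Jund -0.37 (interval -0.84 to 0.10). Their adjusted p values by edgeR were 0.644, 0.741, 0.668 and 0.647. Two-sided exact permutation tests on log2(CPM + 1), which with 4 mice against 4 cannot give less than 0.0286, gave 0.171 for Fos and Jund, 0.2 for Jun, 0.257 for Junb and Atf3, 0.286 for Fosb, 0.343 for Fosl2 and 0.514 for Fosl1.

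Single mice decided how many members were lower with lactate at unadjusted p values. Without vehicle mouse 3 none was, without lactate mouse 2 there were 6, all tested members but Jund, and without vehicle mouse 1 there were 5. Without vehicle mouse 2 there were 3. Leaving out 1 mouse in turn never gave a call after adjustment. Over 17 settings, that of the reported values included, the adjusted p of Fos ranged from 0.235 to 0.777 and that of Junb from 0.266 to 0.777. The log2 fold change stayed negative but ranged from -4.13 to -1.66 for Fos and from -2.19 to -0.75 for Junb. For Fosb it ranged from -3.46 to -0.33 and for Atf3 from -2.47 to -0.54.

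**Figure D3:**
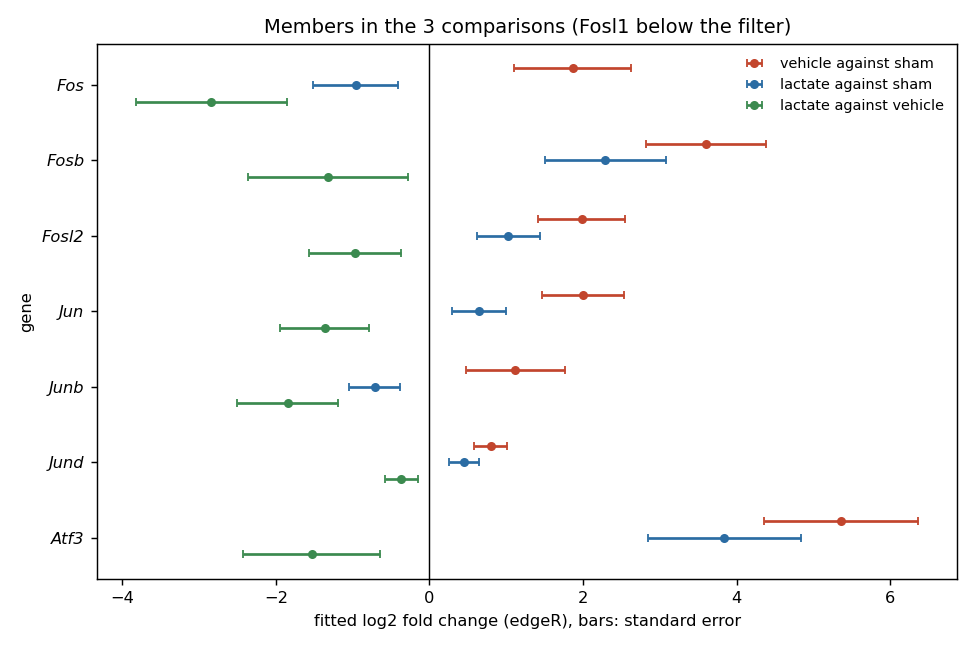
Fitted log2 fold change of each tested member (horizontal axis, bars for the standard error) in vehicle against sham, lactate against sham and lactate against vehicle. With vehicle all 7 members lie above 0, and in lactate against vehicle all 7 lie below 0, from -0.37 for Jund to -2.84 for Fos.

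The balance within the family was read from ratios of read counts in the same mouse, which need no scaling between mice. Reads of Fosb per read of Fos were 0.568, 0.431, 0.213 and 0.364 in sham mice, 3.60, 1.40, 1.13 and 0.484 in vehicle mice and 2.75, 4.16, 1.81 and 1.57 in lactate mice. All lactate mice were therefore above all sham mice, and 3 of 4 vehicle mice held more Fosb than Fos reads. The ratio was above the sham range in lactate mouse 2, with much AP-1 RNA, and in lactate mouse 1, with little. In vehicle mouse 4, at 0.484, it lay within the sham range.

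Reads of Fos per read of Jun ran the other way. They were 2.68, 1.68, 2.23 and 2.31 in sham mice, 0.692, 2.28, 2.35 and 0.700 in vehicle mice and 0.404, 1.184, 0.325 and 0.438 in lactate mice. Vehicle mice split, with mice 2 and 3 in the sham range and mice 1 and 4 below it, while all 4 lactate mice were below the sham range. Reads of Junb per read of Jun were 1.35 to 2.38 in sham, 0.443 to 1.19 in vehicle and 0.486 to 1.42 in lactate mice, so that all vehicle mice lay below all sham mice. Reads of Atf3 per read of Jun were at most 0.0704 in sham, 0.150 to 0.308 in vehicle and 0.0375 to 0.343 in lactate mice. These ratios involve genes picked on the same values, so they are a description without a test.

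**Figure D4:**
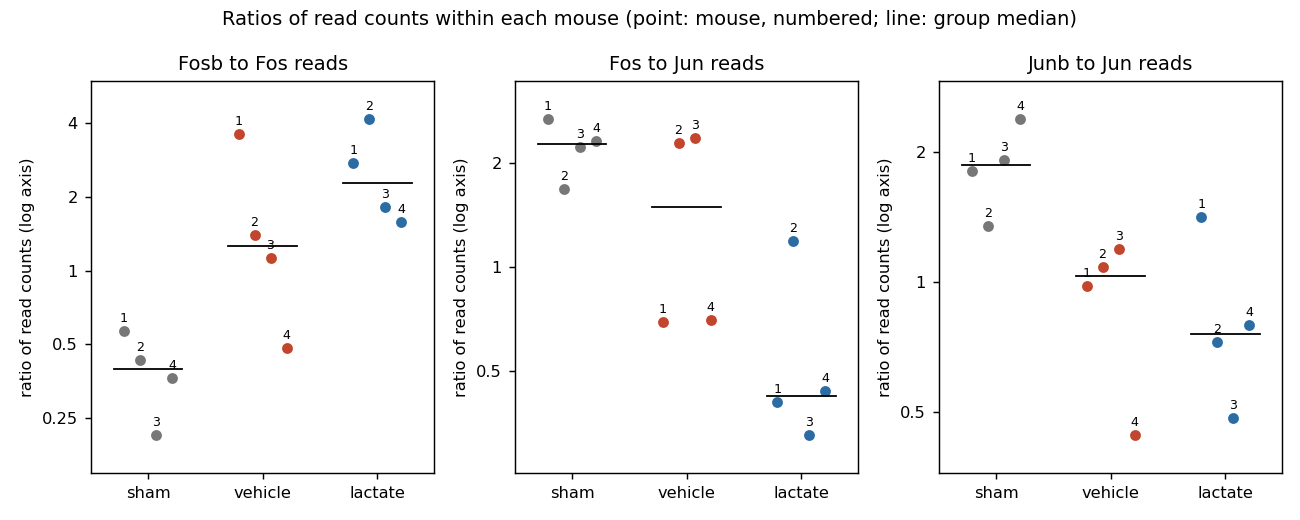
Ratio of read counts of Fosb to Fos, Fos to Jun and Junb to Jun in each mouse, on logarithmic vertical axes, with points numbered by mouse and a line at the group median. The ratio of Fosb to Fos is 0.213 to 0.568 in sham and 1.57 to 4.16 in lactate mice, and that of Fos to Jun is 1.68 to 2.68 in sham and 0.325 to 1.184 in lactate mice.

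Partners and relatives of AP-1 were examined as a list of 33 zipper proteins. With vehicle, 3 of the 28 tested rose over sham by edgeR with adjustment and none fell, with a median log2 fold change of 0.37 beside 0.0031 over all genes, of which 1.29% were called higher. The number was 5 without vehicle mouse 1, 3 without vehicle mouse 2, 2 without vehicle mouse 3 and 1 or 2 without any one sham mouse. They were Cebpd, a C/EBP factor of the acute phase, with 0.553 ± 0.163 CPM in sham and 3.82 ± 2.23 CPM in vehicle mice (SD, n = 4, edgeR adjusted p = 0.00813), and the small Maf proteins Maff (log2 fold change 2.75, SE 0.59, adjusted p = 0.0366) and Mafk (1.37, SE 0.25, adjusted p = 0.0145), which lack an activation domain. No sham mouse reached 1 CPM of Cebpd, which passed the filter on low values only through the ischemic mice, so that its call is a description. The adjusted p of Maff was 0.133 without sham mouse 2, and that of Mafk 0.0687 without sham mouse 3. With lactate, 7 of 27 rose, namely Cebpd, Maff, Mafk, Cebpa, Atf5, Ddit3 and Nfil3, and 1 fell, the circadian factor Dbp, where 7.88% of all genes were called higher and 2.52% lower. With a mouse left out in turn, 3 to 8 rose, with 3 without sham mouse 4 and 4 without lactate mouse 2, and 0 or 1 fell. Cebpa, a C/EBP factor of myeloid and other differentiating cells, had a log2 fold change of 1.32 (SE 0.36) with lactate by edgeR (adjusted p = 0.0304, or 0.0835 without sham mouse 1). Between lactate and vehicle no gene of this list passed after adjustment by edgeR, DESeq2 or limma voom, and 1, Creb5, was lower before it by edgeR, as were 2.47% of all genes.

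Kinases and factors that switch AP-1 on, 26 genes that include MAP kinases, Elk factors and serum response factor, were examined in the same way. With vehicle 0 of 26 were called after adjustment by edgeR, DESeq2 or limma voom, where 1.29% of all genes were called higher. Before adjustment 1 was higher by edgeR, Map2k3, beside 6.50% of all genes. Without vehicle mouse 1 or 2 the number after adjustment was 0 as well. With lactate 1 of 25 was called, beside 2.52% of all genes lower, Map3k13, a kinase upstream of JNK in injured neurons, at 20.7 ± 2.76 CPM in sham and 13.4 ± 2.24 CPM in lactate mice (SD, n = 4, edgeR adjusted p = 0.0323). This call was lost without sham mouse 1, 2 or 4 or lactate mouse 1, 2 or 4, with an adjusted p of 0.0920 without sham mouse 4. Before adjustment 1 gene was higher with lactate by edgeR, Elk1, a factor that acts with serum response factor, with a log2 fold change of 0.65 (SE 0.21), beside 11.9% of all genes. DESeq2 and edgeR's exact test called 1 gene of the list higher after adjustment. Their shares of all genes are not given here, so nothing is read from that count. No gene of this list passed between lactate and vehicle, before or after adjustment by edgeR.

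Some known AP-1 target genes rose in both ischemic groups. Of 30 genes 19 were tested, and edgeR with adjustment called 8 higher and none lower with vehicle, namely Timp1, Plaur, Cd44, Hmox1, Ccl2, Ptgs2, Vim and Ezr, with a median log2 fold change of 0.97. All genes were called higher at 1.29% with vehicle and at 7.88% with lactate. The other 11 genes were too low to be tested, and 3 of the 8, Timp1, Cd44 and Ccl2, reached 1 CPM in no sham mouse and passed the filter only through the ischemic mice in which they were high, so that the counts and medians of this list are a description. The 8 became 3 without any one sham mouse, 4 without vehicle mouse 3, 9 without vehicle mouse 1 and 7 without vehicle mouse 2. The remaining 11 tested targets, among them Penk at 0.028 and Npy at -0.087, were not called with vehicle. With lactate it called 13 higher and none lower, the same 8 together with Ccnd1, Hbegf, Vegfa, Spp1 and Nts, with a median of 1.24, and 10 to 13 with a mouse left out. The medians over all genes were 0.0031 and -0.028, and both comparisons use the same sham mice.

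Timp1, an inhibitor of matrix metalloproteinases, was higher in every ischemic mouse than in any sham mouse. It had 3 to 7 reads in sham mice, 76, 69, 105 and 101 in vehicle mice and 239, 191, 243 and 239 in lactate mice, without overlap between any of the groups. Its log2 fold change over sham was 4.20 (SE 0.35) with vehicle and 5.59 (SE 0.25) with lactate. These values are a description, since no sham mouse reached 1 CPM of Timp1 and it passed the filter only through the ischemic mice. Cd44, the receptor for hyaluronan, stood at 0.268 ± 0.240 CPM in sham, 2.08 ± 0.98 CPM in vehicle and 3.84 ± 1.97 CPM in lactate mice (SD, n = 4). Ccl2, a chemokine that draws monocytes, had 3 reads over all sham mice, 10 to 44 in each vehicle mouse and 9 to 33 in each lactate mouse.

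Ptgs2, the inducible cyclooxygenase and itself an immediate early gene in neurons, stood at 2.64 to 4.32 CPM in sham, at 5.53, 39.9, 70.1 and 5.58 CPM in vehicle mice 1 to 4 and at 9.87, 26.7, 5.93 and 7.89 CPM in lactate mice 1 to 4. Vehicle mice 2 and 3 and lactate mouse 2 were again the highest of their groups. Its adjusted p with vehicle was 0.0491 by edgeR, and 0.159 without sham mouse 1 or 0.127 without vehicle mouse 3.

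Between lactate and vehicle, 12 of the 20 tested targets had a fitted value above 0 and 8 below it. At unadjusted p values 4 were higher with lactate, namely Timp1, Hmox1, Vim and Spp1, and none was lower, beside 3.76% of all genes higher. None passed after adjustment by edgeR's quasi-likelihood test or limma voom, while DESeq2 and edgeR's exact test each called 3, Timp1, Vim and Spp1. The shares of all genes called by DESeq2 and the exact test are not given here, so nothing is read from these calls. The median of the list was 0.17, and a difference between targets and factors was not tested. Without any one mouse, vehicle mice 1 and 2 included, all 4 genes stayed past the unadjusted limits. Of these, Hmox1, Vim and Spp1 were chosen to be described after their values had been seen. Timp1 had a log2 fold change of 1.38 (SE 0.24), with an edgeR p of 8.48e-05 before and 0.265 after adjustment. Hmox1, the haem oxygenase of oxidative stress, had 0.93 (SE 0.24), with an edgeR p of 0.00245 before and 0.460 after adjustment. Vim, an intermediate filament of reactive glia, stood at 14.99 to 18.7 CPM in vehicle and 21.2 to 33.9 CPM in lactate mice. Spp1, the secreted protein osteopontin, stood at 17.1 to 57.5 CPM in vehicle and 86.8 to 113 CPM in lactate mice. In each of these 4 genes, which were picked by their unadjusted p in this comparison, all lactate mice lay above all vehicle mice, as they did in 2.99% of all genes.

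**Figure D5:**
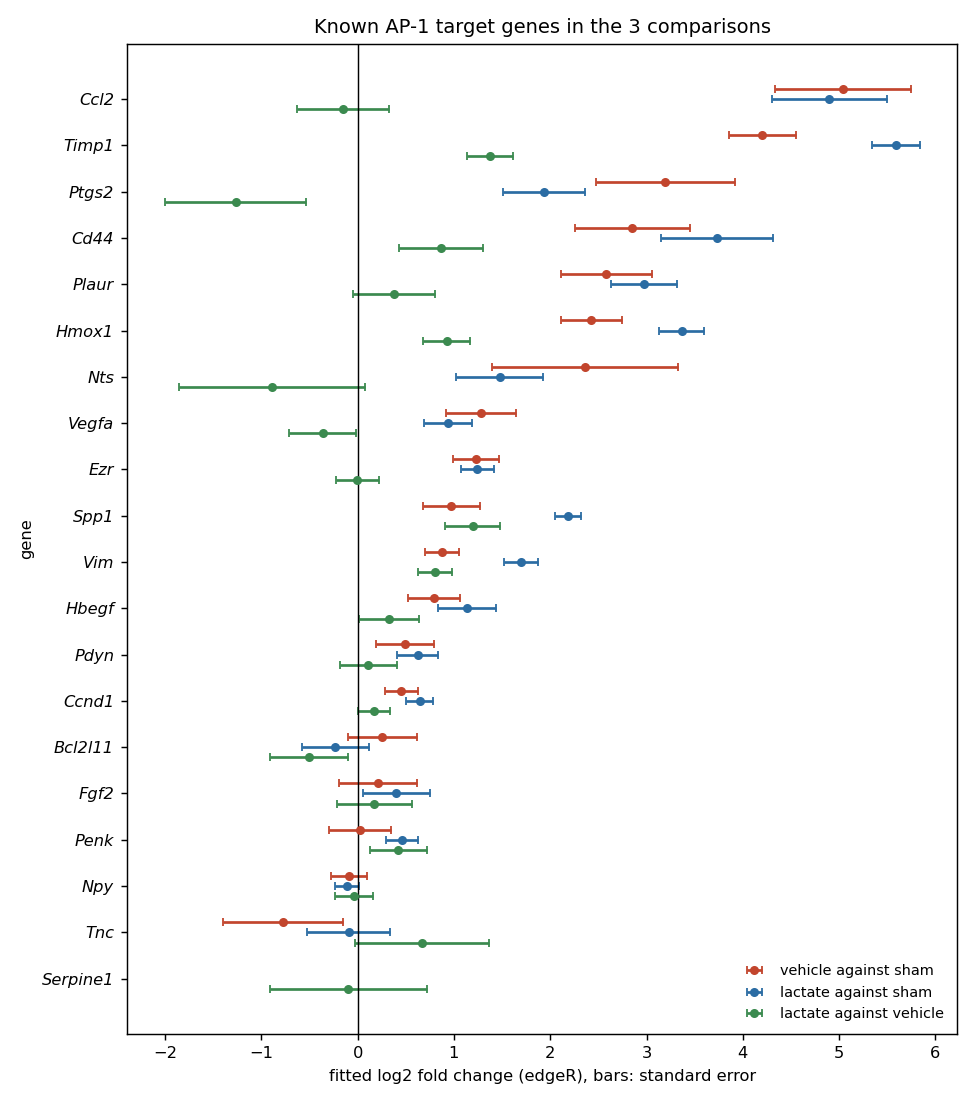
Fitted log2 fold change of the tested AP-1 target genes (horizontal axis, bars for the standard error) in the 3 comparisons, ordered by vehicle against sham. Timp1, Hmox1, Vim and Spp1 lie above 0 in lactate against vehicle, at 1.38, 0.93, 0.81 and 1.196, whereas Ptgs2 lies below 0 at -1.27, with an edgeR adjusted p of 0.643.

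Genes known to accompany Atf3 and Jun in injured neurons formed another list. Of 15 genes 13 were tested, and with vehicle edgeR with adjustment called 1 higher, Hspb1, a small heat shock protein, beside 1.29% of all genes. It stayed called without vehicle mouse 1 or 2 but not without sham mouse 1, 3 or 4, with an adjusted p of up to 0.0601. It stood at 1.60 to 3.79 CPM in sham, 8.52, 43.4, 52.8 and 8.51 CPM in vehicle mice and 17.8, 24.8, 17.9 and 44.2 CPM in lactate mice, with log2 fold changes over sham of 3.44 (SE 0.60) and 3.33 (SE 0.35). With lactate 2 were higher, Hspb1 and Nts, beside 7.88% of all genes, and 1 lower, Cckbr, beside 2.52%. With a mouse left out, 1 or 2 were higher and 0 or 1 lower. No gene of the list passed between lactate and vehicle, before or after adjustment by edgeR, or after it by DESeq2 or limma voom.

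Integrated stress response genes, the programme in which Atf3 is induced downstream of Atf4, were the last list. With vehicle 2 of 15 tested genes rose by edgeR with adjustment, the DNA damage and stress genes Gadd45g and Gadd45b, beside 1.29% of all genes, and none fell. The number was 0 without any one sham mouse or vehicle mouse 2, 1 without vehicle mouse 3 and 4 without vehicle mouse 1. Gadd45g stood at 24.4 to 35.5 CPM in sham, 53.0, 137, 393 and 71.9 CPM in vehicle and 37.2, 114, 63.7 and 37.2 CPM in lactate mice, so vehicle mouse 3 and lactate mouse 2 were again highest. With lactate 5 rose, Atf5, Ddit3, Gadd45g, Slc7a11 and Nupr1, beside 7.88% of all genes, and 1 fell, Vldlr, beside 2.52%. With a mouse left out, 2 to 7 rose, with 2 without sham mouse 3 or 4, and 0 or 1 fell. Among the genes called in neither comparison was Atf4, with log2 fold changes of 0.46 with vehicle and 0.14 with lactate. Asns, at -0.091 and -0.060, and Phgdh, at 0.0051 and -0.053, were not called either. Between lactate and vehicle none passed after adjustment by edgeR, DESeq2 or limma voom, while before it by edgeR Slc7a11 and Nupr1 were higher, beside 3.76% of all genes, and Gadd45g lower, beside 2.47%. Nupr1, a small stress-induced chromatin protein, had 12.6 to 14.3 CPM in vehicle and 15.1 to 24.7 CPM in lactate mice.

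The genes with levels most like those of Fos were named by correlation. Over 12 mice and 13528 genes, Pearson's r of log2(CPM + 1) was 0.959 with Arc, a synaptic immediate early gene, 0.956 with the orphan receptor Nr4a1, 0.950 with the neuronal activity factor Npas4, 0.946 with the mitochondrial protein Armcx3 and 0.938 with the zinc finger factor Egr2. Among the members Junb was closest to Fos, in place 6 with r = 0.929, then Jun in place 65, while Jund was in place 5920 with r = 0.095. Npas4 stood at 17.6 to 28.0 CPM in sham, 2.44, 65.3, 400.1 and 9.10 CPM in vehicle and 3.11, 18.2, 1.45 and 4.06 CPM in lactate mice, so that lactate mice 1, 3 and 4 and vehicle mice 1 and 4 were below all sham mice. Without vehicle mouse 3 and lactate mouse 1, the farthest from the median of Fos, r with the 5 genes was 0.911 to 0.953.

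Atf3 had other neighbours. The genes most like it were the chemokine Ccl4 (r = 0.961), the sterol synthesis enzyme Cyp51 (0.959), the heat shock gene Hspa1b (0.943), the granulocyte factor Csf3 (0.943) and Gadd45g (0.942). Ccl4 had at most 2 reads and Csf3 at most 1 read in any sham mouse, below the floor of 3 reads. Their correlations with Atf3, itself at 0 to 9 reads in sham, thus include sham values near the floor. Hspa1b shares most of its sequence with Hspa1a, so its reads are uncertain. It had 2 to 8 reads in sham mice, 15, 230, 260 and 86 in vehicle mice and 32, 252, 70 and 27 in lactate mice, the same order of mice as Atf3 in the vehicle group. Among the members Jun was closest to Atf3, in place 48 with r = 0.879, and Fos only in place 745 with r = 0.595. Without vehicle mice 2 and 3, r of Atf3 was 0.910 to 0.927 with these 5 genes, 0.731 with Jun and 0.049 with Fos. These correlations describe 12 mice of 3 groups that share their libraries, groups and depth. By Spearman correlation 4 of the 5 genes most like Fos stayed among the 5, but only 1 of those most like Atf3.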

How the data were processed

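Brain RNA of 12 mice, 4 per group, was analysed. The authors kept reads of at least 500 bp and quality 7, removed ribosomal RNA, mapped full-length reads with minimap2, polished transcripts with pinfish and compared them with known ones by gffcompare. Submitters' processing notes name GRCm38 and DESeq 1.10.1, and the way of counting per gene is not given in the sources used here. The deposited count values are raw reads per gene, and the deposited CPM values are the same counts scaled to the total of each mouse. Table columns of the authors' own fold changes and p values were not used. Of 31212 lines, 4 without a gene were left out, and 0 per-sample columns were unmapped.

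Each pair of groups was fitted on its own with the quasi-likelihood method of edgeR 4.0.16 under R 4.3.3, after TMM scaling. Genes entered when 4 or more of the 8 mice reached 1 CPM, and p values were adjusted over all of them by Benjamini-Hochberg. SEs are the log2 fold change divided by the square root of F, and intervals use the t distribution at the degrees of freedom of edgeR. A call needs an adjusted p below 0.05 and a 1.5-fold change or more. Members and lists were chosen with earlier results of these data known. Nothing states that the 4 mice of a group were processed separately, so p values cover the spread between these samples. Floors of 3 reads cover counting error only, since reads carry no molecular identifiers. Named genes are the members, per list the 3 called genes with the largest change and no overlap, and the 5 genes most like Fos and Atf3. A doubled symbol, Ddit3, was read from its lower Ensembl number. Alternatives used DESeq2 1.42.0, limma 3.58.1, other filters and scalings, one fit of 12 mice, a block and leaving out each mouse in turn, with a filter for 3 of 7 mice. The fits were tested on simulated data. Python 3.11.15, scipy 1.17.1 and matplotlib 3.10.9 were used.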

Additional observations from a re-analysis of the deposited data

Results flagged for a closer look

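Of 60 groups of 4 values examined, 10 had 1 mouse whose gap to the next mouse, as a share of the range, passed Dixon's critical value for 4 samples. Chance gives about 1 in 20 for a single group, but these groups are not independent, since members move together in the same mice and were chosen with their values known, so nothing is read from the number. Lactate mouse 2 was such a mouse in 6 of the 10, for Fos (53.3 CPM), Fosb (221.4 CPM), Fosl2 (7.78 CPM), Junb (32.7 CPM), the ratio of Fos to Jun reads (1.184) and the summed endothelial markers (69.8 CPM). The others were the summed markers of neurons in vehicle mouse 1 (4910 CPM), of choroid plexus in vehicle mouse 2 (1837 CPM), of microglia in sham mouse 2 (215 CPM) and of oligodendrocytes in lactate mouse 1 (9266 CPM). Vehicle mouse 3 did not pass this value for any member.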

How the results depend on the processing

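Members called with vehicle against sham numbered 2, and 6 at unadjusted p values, 4 with DESeq2, 5 with edgeR's exact test, 1 in one fit of 12 mice and 0 to 4 when each mouse was left out in turn. With lactate against sham 1 was called, and 3 at unadjusted p values, 0 with DESeq2, 2 with edgeR's exact test, 2 without a filter, 0 in one fit of 12 mice, 2 with the replicate block and 0 to 2 with a mouse left out. Between lactate and vehicle 0 were called, 3 at unadjusted p values, and 0 to 0 with a mouse left out. At unadjusted p values, leaving out a mouse gave 5 to 7, 2 to 4 and 0 to 6 members. These last fits, the block at unadjusted p values and a pseudocount of 0.5 were added after seeing the data. The cause of these changes was not tested.

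Mouse numbers are shared between groups but mark different animals, and same-numbered mice correlated at -0.14 to 0.153 in their deviations. A fit with the number as a replicate block called 2, 2 and 0 members, or 5, 3 and 3 at unadjusted p values. All 112 alternative fold changes of members between lactate and vehicle stayed negative without a call. Fosl1 and Atf3 in sham mice are limited by depth.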
